A study of Mus musculus with 6 samples.

Results

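The mouse genes encoding translation initiation and elongation factors were compared between macrophages grown on 2 hydrogels. Members were the rows of the deposited gene table whose symbol begins with Eif1 to Eif6, Eef1 or Eef2. The 13 rows marked as pseudogenes by -ps in the symbol were left out, as were 6 rows for the kinases Eif2ak1 to Eif2ak4, Eef2k and the methyltransferase Eef2kmt. This left 83 of the 56691 genes, 59 of which had enough counts to be tested. The rule reads the gene names and no measured value, though it was written with earlier results of these data known.

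The cells were the RAW mouse macrophage line, written RAW246.7 in the labels, of wild-type genotype. The cells of all 6 libraries had been pretreated with LPS, the lipopolysaccharide of Gram-negative bacteria that macrophages sense through TLR4, and then spent 24 h on a hydrogel. Libraries MSA-ZW 1, 2 and 3 came from cells on MSA-ZW gels, and libraries MSA-DA 1, 2 and 3 from cells on MSA-DA gels. The labels give the gels by these names only. The title of the series places the comparison in a study of macroporous hydrogels that take up protein to different degrees. No cells without LPS or off a gel were analysed here, so every difference below is between the gels. Whether the 3 libraries of a gel stand for separate cultures is not in the labels, so the p-values speak only of the spread among these libraries, and that spread may be technical.

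Total counts ran from 14374912 to 18346615 per library. Of 10 macrophage markers, 9 had at least 10 counts in every library and Mertk did not. Their summed level was 5691 to 5762 CPM (counts scaled to a common library total) on MSA-ZW and 4953 to 5020.3 CPM on MSA-DA, and the part of this shift in the results below was not tested. The 4 fibroblast, 3 endothelial and 3 epithelial markers summed to at most 1.87 CPM in any library. Dcn, Epcam and Cdh1 among them had no count at all. The ribosomal-RNA-like locus Rn18s-rs5 held 0.237% to 0.449% of counts on MSA-ZW and 0.133% to 0.142% on MSA-DA. The numbers of members called were the same, 9 higher and 7 lower, without this kind of locus.

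As background, protein synthesis starts when eIF2 carries the initiator tRNA to the small ribosomal subunit, together with eIF1, eIF1A, eIF3 and eIF5. The cap-binding complex eIF4F, made of eIF4E, eIF4G and the helicase eIF4A, brings this assembly to the messenger RNA, where it scans to the start codon. eIF5B then joins the large subunit, eEF1A delivers each aminoacyl-tRNA, eEF2 moves the ribosome one codon on, and eIF5A helps it past difficult stretches. In macrophages LPS acts on this machinery through mTORC1, MNK kinases and eIF2 kinases, which work on the proteins by phosphorylation and are not read by messenger RNA levels.

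Of the 59 tested members, 9 were higher on MSA-DA, 7 were lower and 43 did not pass an edgeR adjusted p of 0.05. Calls made up 27.1% of the members, beside 13.4% of all 12467 tested genes, of which 6.92% were higher and 6.5% lower. These factors are abundant, and abundant genes are called more often. At a mean of at least 100 CPM, 13 of 41 members (31.7%) and 30.9% of all genes were called, so the share of members called was near that of other genes as deep. In bulk libraries, fewer cells in a state and less RNA per cell cannot be told apart. The calls were small, with a median of 1.09-fold. The median log2 difference, MSA-DA minus MSA-ZW, was -0.0053 over the tested members and 0.00085 over all tested genes. The 3 MSA-DA libraries all lay above the 3 MSA-ZW libraries for 17 members and all below for 14, together 52.5% of the tested members beside 28.4% of all genes. Among genes of at least 100 CPM these shares were 63.4% and 47.4%.

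**Figure D1:**
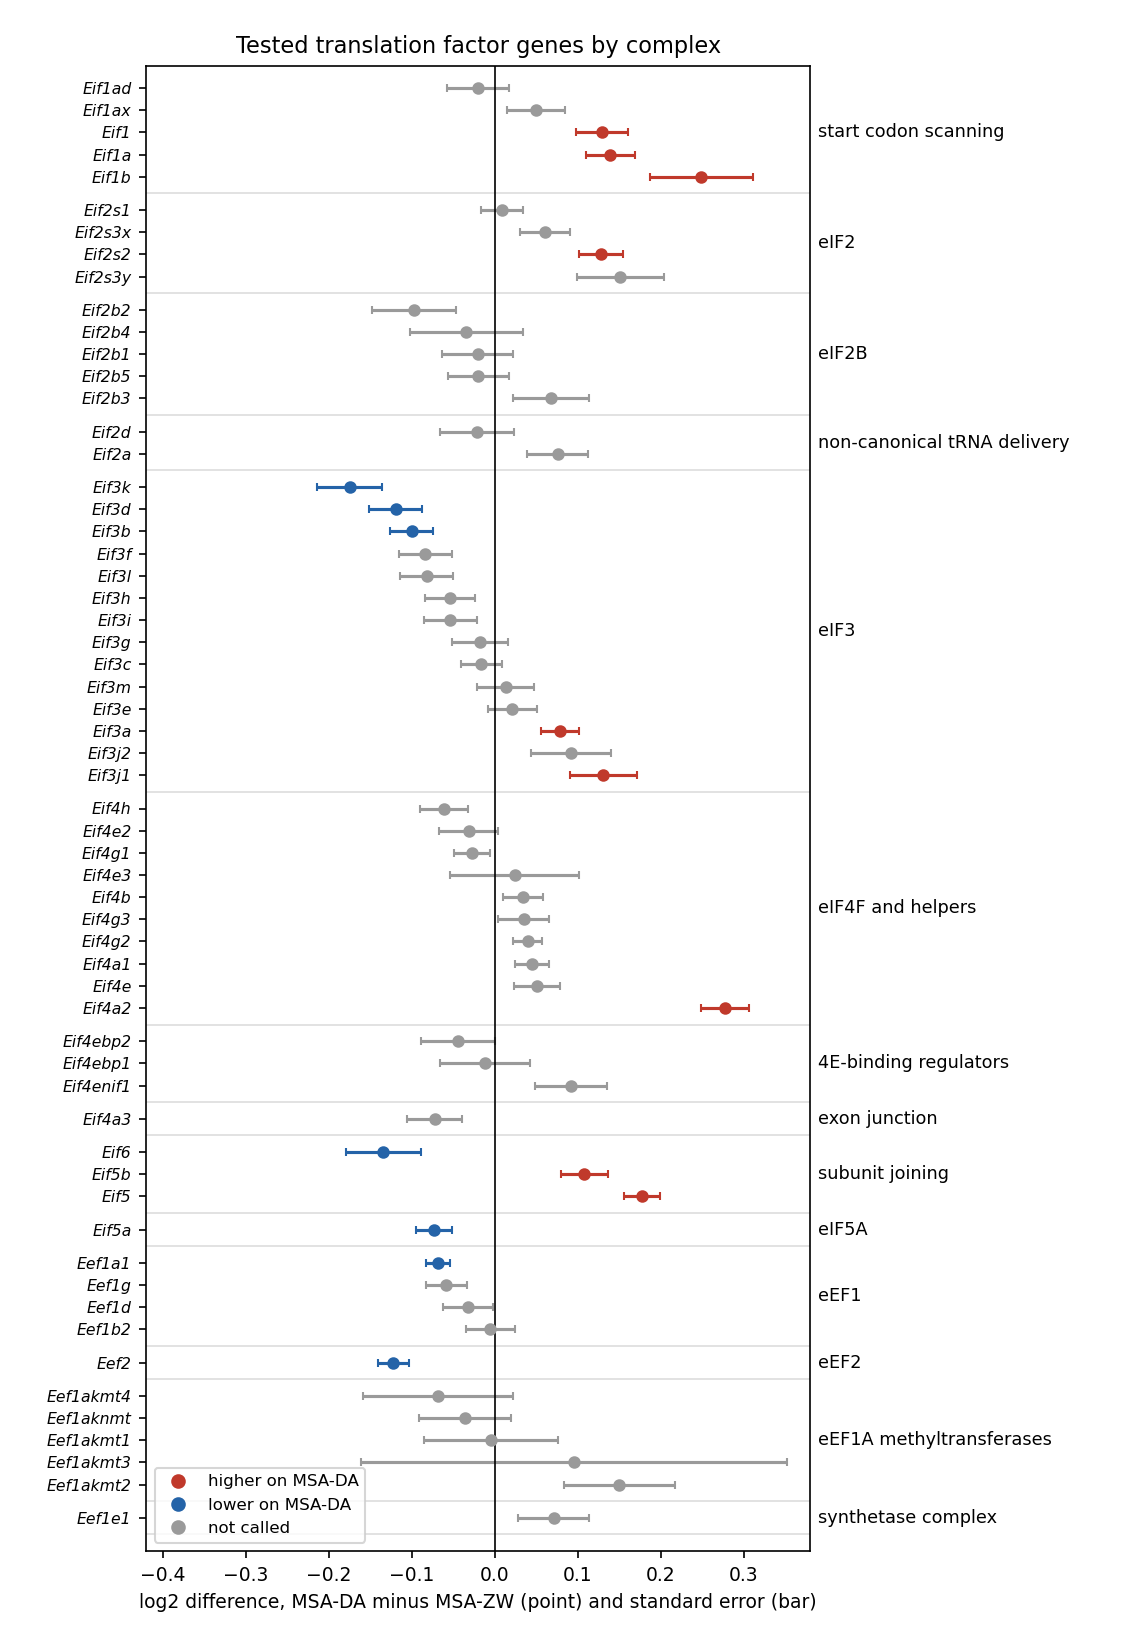
Log2 difference between MSA-DA and MSA-ZW (horizontal axis, points, with the standard error as bars) for each of the 59 tested translation factor genes, grouped by complex. The 9 genes higher on MSA-DA include 3 of 5 start codon factors, and the 7 lower genes include Eef1a1 and Eef2.

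Members together held 2.79% to 2.84% of all counts on MSA-ZW and 2.76% to 2.77% on MSA-DA. Genes of the scanning and joining steps held most of the higher calls: Eif1, Eif1a, Eif1b, Eif5, Eif5b and, for the tRNA carrier eIF2, Eif2s2. The lower calls held the main elongation factors Eef1a1 and Eef2 and the eIF3 subunits Eif3b, Eif3d and Eif3k. The 5 members Eif4a2, Eif5, Eif3k, Eef2 and Eef1a1 were called in the same direction under all 16 alternative analyses listed with the processing steps. The plot of called members by library shows all 16.

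**Figure D2:**
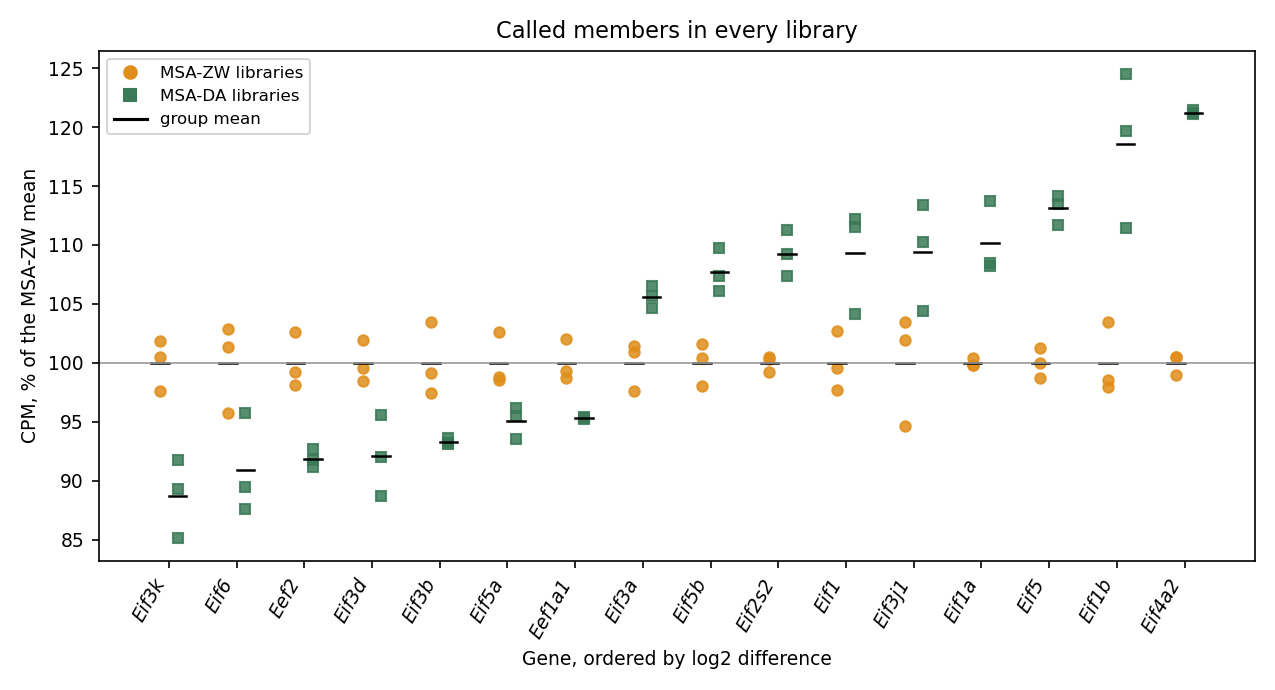
CPM of each called member as a percent of its MSA-ZW mean (vertical axis), one point per library, with the group means as bars. The MSA-ZW and MSA-DA points are separate for 15 of the 16 genes and overlap for Eif6.

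The first bases of a transcript can carry a run of C and T that begins at the cap, the 5′ terminal oligopyrimidine (TOP) motif known from Eef1a1, Eef2, several eIF3 subunits and ribosomal protein genes and used by mTORC1 to control translation. The starts of the 5 members called under every alternative are printed with that of Eif3f, a known TOP gene that was not called, because they let the reader compare members that moved in opposite directions. Each window runs from 10 bases before to 20 bases from the annotated start, 5′ to 3′ on the gene's strand, from the RefSeq promoter table for GRCm38.p6. The deposited table itself uses GRCm39, and no coordinate was moved between them. Capitals mark the longest run of C or T in the window.
Eif4a2, chr16:23107458-23107487, plus strand: gaaaCCCCgtaggagcagggcggccgagga
Eif5, chr12:111538091-111538120, plus strand: cgacgtgcatgcgagCCaatgacaagagaa
Eif3k, chr7:28981869-28981898, minus strand: aaccggcgctggtgctgaaagcgCCTTTCC
Eef2, chr10:81176621-81176650, plus strand: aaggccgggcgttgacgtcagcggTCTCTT
Eef1a1, chr9:78481705-78481734, minus strand: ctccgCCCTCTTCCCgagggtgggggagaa
Eif3f, chr7:108934405-108934434, plus strand: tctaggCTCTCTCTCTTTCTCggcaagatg

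The longest run was 4 bases for Eif4a2 and 2 for Eif5, the members that were higher. It was 7 for Eif3k, 6 for Eef2 and 10 for Eef1a1, the members that were lower, and 15 for Eif3f. The runs of Eif3k and Eef2 began 13 and 14 bases after the annotated start, not at it. Among other TOP genes that were not called, the longest run was 4 for Eef1b2. For Eif4b it was 7, beginning 10 bases after the start. The longest run in a window is therefore not a reading of the TOP motif. Among the other called members with a start listed, it was 5 for Eif3b, 3 for Eif3d and 2 or 3 for Eif5a, all lower. It was 5 for Eif5b, 4 for Eif2s2 and Eif3j1, 3 for Eif3a and 2 for Eif1 and Eif1b, all higher. A run of at least 8 C or T, in any order and on the gene's strand only, was present in 11.2% of all 32851 annotated starts, whose median longest run was 4. Of the members, 49 of 83 had a start in the table. Of 45 matched and tested members outside chromosome 18, 9 held such a run at any of their annotated starts. The 11.2% counts each start apart, so these shares are counted differently. Eif1a, called higher, lies on chromosome 18 and had no start listed. Such a run was present in none of the 8 matched members called higher, and in 1 of the 6 matched members called lower, Eef1a1. The runs of Eef2 and Eif3k end at the edge of the window. These letters describe the annotated start and do not show where transcription began in these cells. A list of 9 members known as TOP genes held Eef1a1, Eef1b2, Eef1d, Eef1g, Eef2, Eif3e, Eif3f, Eif3h and Eif4b. It had 2 lower calls, Eef1a1 and Eef2, and no higher call, with a median log2 difference of -0.054. A further 4 TOP genes outside the members, given below, had 2 higher calls and 1 lower, with a median of 0.064. Lower calls made up 7 of the 59 tested members and 6.5% of all tested genes. At a mean of at least 100 CPM, which all 9 TOP members reached, 30.9% of all genes were called in either direction.

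Of the 5 tested genes of start codon selection, 3 were higher on MSA-DA and none was lower. Eif1 encodes the factor that keeps the scanning ribosome open until it meets a good start codon. It stood at 278, 273 and 287 CPM in MSA-ZW libraries 1, 2 and 3 and at 291, 312 and 314 CPM in MSA-DA libraries 1, 2 and 3, the order used throughout. The MSA-DA libraries were all above the MSA-ZW libraries, by 1.09-fold (log2 0.13, SE 0.031, edgeR adjusted p = 0.00416). Without MSA-DA 2 or MSA-DA 3 the edgeR adjusted p was 0.0749 or 0.0688. Its close paralog Eif1b was at 32.6, 30.9 and 31.1 CPM on MSA-ZW and 35.1, 39.3 and 37.7 CPM on MSA-DA. The groups did not overlap, and the 1.19-fold difference (log2 0.25, SE 0.062, edgeR adjusted p = 0.00579) was lost without MSA-DA 2 (edgeR adjusted p = 0.0756).

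Eif1a encodes eIF1A, the partner of eIF1 on the small subunit. It measured 237, 237 and 239 CPM on MSA-ZW and 258, 257 and 270.3 CPM on MSA-DA, 1.1-fold higher (log2 0.14, SE 0.030, edgeR adjusted p = 0.00122). The groups were separate here too. The near-identical X-linked gene Eif1ax had a log2 difference of 0.050 (SE 0.035, edgeR adjusted p = 0.404), and Eif1ad, which carries an eIF1A-like domain, one of -0.020 (SE 0.037, edgeR adjusted p = 0.798). Neither was called. The 5 genes together summed to 819 ± 13.8 CPM on MSA-ZW and 878 ± 23.1 CPM on MSA-DA (SD, n = 3 each). A further 17 rows are multicopy relatives named Eif1ad with a number, with at most 3 counts in a library, and none of them was tested.

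The tRNA carrier eIF2 and its exchange factor eIF2B held 1 higher gene and no lower one. Eif2s2, the beta subunit of eIF2, which contacts eIF5, was the called gene among these 9. It was at 358, 354 and 358 CPM on MSA-ZW and 383, 389.8 and 397 CPM on MSA-DA, without overlap and 1.09-fold higher (log2 0.13, SE 0.027, edgeR adjusted p = 0.00111). Eif2s1, the alpha subunit that stress kinases phosphorylate, had 465, 468 and 468 CPM on MSA-ZW and 475, 473 and 461 CPM on MSA-DA. These overlapped (log2 0.0088, SE 0.026, edgeR adjusted p = 0.882). The gamma subunit that binds the tRNA comes from the X-linked Eif2s3x and the Y-linked Eif2s3y. Their log2 differences were 0.060 (edgeR adjusted p = 0.209) and 0.15 (edgeR adjusted p = 0.0509), and in both the MSA-DA libraries lay above the MSA-ZW libraries. Per length, eIF2 genes ranked Eif2s1, Eif2s2, Eif2s3x and Eif2s3y, at means over all libraries of 94.5, 55.2, 54.3 and 11.3 FPKM, a level scaled by gene length and library size. On MSA-ZW, Eif2s2 and Eif2s3x did not differ beyond their spread, at 52.9 ± 0.451 and 53.3 ± 1.0 FPKM (mean ± SD, n = 3).

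None of the 5 eIF2B genes, which reload eIF2 with GTP and are the target of the integrated stress response, was called or separated the gels. Their log2 differences ran from -0.10 for Eif2b2 to 0.068 for Eif2b3. Eif2b5, the catalytic epsilon subunit and the most abundant per length at 44.7 FPKM, had 119.9, 112 and 119 CPM on MSA-ZW and 117, 117 and 113 CPM on MSA-DA (log2 -0.020, SE 0.037, edgeR adjusted p = 0.801). Its 95% interval (normal approximation) ran from -0.091 to 0.052. Eif2a and Eif2d, which can bring tRNA to the ribosome without eIF2, were not called, at log2 0.076 (edgeR adjusted p = 0.192) and -0.021 (edgeR adjusted p = 0.823).

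eIF3, the scaffold of the initiation complex with the most subunits, had changes in opposite directions. Of its 14 genes, all tested, 2 were higher, 3 were lower and 9 were not called. The eIF3 total was 3909 ± 36.3 CPM on MSA-ZW and 3873 ± 13.2 CPM on MSA-DA (SD, n = 3 each), and these ranges overlapped. Per length the genes ran from 17.7 FPKM for Eif3j1 to 170.4 FPKM for Eif3b. Neighbours such as Eif3m (55.2 ± 2.21 FPKM on MSA-ZW) and Eif3l (57.1 ± 2.07 FPKM on MSA-ZW, mean ± SD, n = 3) did not differ beyond their spread.

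Eif3k, a peripheral subunit that pairs with Eif3l, fell the most. It lies at chr7:28670797-28681289 (GRCm39, minus strand), and its levels were 101, 104 and 105 CPM on MSA-ZW and 94.97, 88.1 and 92.4 CPM on MSA-DA. The groups were separate, 1.13-fold apart (log2 -0.17, SE 0.039, edgeR adjusted p = 0.00194). Eif3b, a core subunit that holds Eif3g and Eif3i, was at 576, 585 and 611 CPM on MSA-ZW and 551, 549.8 and 553 CPM on MSA-DA, with the 3 MSA-DA values close together below the others (log2 -0.10, SE 0.026, edgeR adjusted p = 0.00786). Eif3d, which can bind the cap of some messenger RNAs itself, was at 208, 213 and 206 CPM on MSA-ZW and 199.8, 192 and 185 CPM on MSA-DA. It was lower without overlap (log2 -0.12, SE 0.032, edgeR adjusted p = 0.00996), though not without MSA-ZW 2 (0.0512) or MSA-DA 3 (0.0945), both edgeR adjusted p.

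Eif3a, the largest core subunit, went the other way, at 985, 989 and 952 CPM on MSA-ZW and 1039, 1031 and 1021 CPM on MSA-DA (log2 0.079, SE 0.023, edgeR adjusted p = 0.0159). Its groups did not overlap, but the edgeR adjusted p was 0.110 without MSA-DA 1, 0.119 without MSA-DA 2 and 0.061 without MSA-DA 3. Eif3j1, a loosely bound subunit near the mRNA channel, was at 93.4, 102 and 101 CPM on MSA-ZW and 103, 112 and 109 CPM on MSA-DA (log2 0.13, SE 0.041, edgeR adjusted p = 0.0269). The highest MSA-ZW library and the lowest MSA-DA library were close, and the call was lost without MSA-ZW 1 (0.185), MSA-DA 2 (0.23) or MSA-DA 3 (0.113), all edgeR adjusted p. Its near-identical paralog Eif3j2 had a log2 difference of 0.092 (edgeR adjusted p = 0.235). Eif3f, Eif3h, Eif3i and Eif3l each had all MSA-DA libraries below all MSA-ZW libraries without passing the test. Of these, Eif3f (log2 -0.084, edgeR adjusted p = 0.0825) and Eif3l (log2 -0.082, edgeR adjusted p = 0.0893) came nearest to the threshold.

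The cap-binding complex eIF4F had 1 called gene of 10 tested, and it had the smallest p and the largest fold of all tested members. With GC content and length fitted as described below, the fold of Eif1b was larger. Eif4a2 encodes eIF4A2, a second form of the helicase that unwinds leader sequences, which is also known to work with the CCR4-NOT complex in silencing. It lies at chr16:22926194-22932886 (GRCm39, plus strand). It stood at 238, 234 and 237 CPM on MSA-ZW and 287, 286 and 286 CPM on MSA-DA. The spread within each gel was a small part of the gap between them, which was 1.21-fold (log2 0.28, SE 0.028, edgeR adjusted p = 7.23e-09). The main helicase form Eif4a1 was at 1368, 1376 and 1392 CPM on MSA-ZW and 1430.4, 1415 and 1422 CPM on MSA-DA (log2 0.045, SE 0.020, edgeR adjusted p = 0.152). It was not called, although its groups did not overlap.

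The cap-binding protein itself, Eif4e, was at 319, 325 and 313 CPM on MSA-ZW and 325, 336 and 330.2 CPM on MSA-DA, which overlapped (log2 0.051, SE 0.028, edgeR adjusted p = 0.268). The scaffold Eif4g1 had a log2 difference of -0.027 (SE 0.022, edgeR adjusted p = 0.480). Eif4g2, a scaffold that lacks the site that binds eIF4E, had 0.040 (SE 0.017, edgeR adjusted p = 0.143), and Eif4g3 had 0.035 (SE 0.030, edgeR adjusted p = 0.528). Eif4b, which stimulates the helicase, had 0.034 (SE 0.024, edgeR adjusted p = 0.410). Eif4h, Eif4e2 and Eif4e3 lay between -0.061 and 0.024 and were not called. Summed over its 11 rows the group had 7265 ± 36.4 CPM on MSA-ZW and 7433 ± 22.7 CPM on MSA-DA (SD, n = 3 each).

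The 4E-binding regulators, whose proteins bind eIF4E, included no called gene. Eif4ebp1 was at 47.5, 43.1 and 44.8 CPM on MSA-ZW and 45.5, 44.2 and 44.7 CPM on MSA-DA (log2 -0.012, SE 0.054, edgeR adjusted p = 0.927). The groups overlapped, and its 95% interval (normal approximation) ran from -0.12 to 0.095. Eif4ebp2 (log2 -0.044, SE 0.045, edgeR adjusted p = 0.594) and Eif4enif1, the 4E transporter (log2 0.091, edgeR adjusted p = 0.179), were not called either. Eif4ebp3 had too few counts for a test, with 6, 2 and 4 for MSA-ZW and 7, 2 and 6 for MSA-DA. Eif4a3, which is a core part of the exon junction complex rather than of eIF4F, was not called (log2 -0.072, edgeR adjusted p = 0.154).

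At the joining step 2 genes were higher and 1 lower. Eif5 encodes the factor that triggers GTP hydrolysis by eIF2 at the start codon and lies at chr12:111504450-111513186 (GRCm39, plus strand). It was at 1050.3, 1063 and 1036 CPM on MSA-ZW and 1173, 1191 and 1199 CPM on MSA-DA. The lowest MSA-DA library was well above the highest MSA-ZW library, and the difference was 1.13-fold (log2 0.18, SE 0.022, edgeR adjusted p = 2.55e-07). Eif5b, the GTPase that joins the subunits, was at 293, 297 and 286 CPM on MSA-ZW and 314, 320.3 and 309.8 CPM on MSA-DA, also without overlap (log2 0.11, SE 0.029, edgeR adjusted p = 0.00888), with a call that was lost without MSA-DA 2 (edgeR adjusted p = 0.118). Eif6, which keeps free large subunits from joining early, was at 79.2, 73.7 and 78.0 CPM on MSA-ZW and 67.4, 73.7 and 68.9 CPM on MSA-DA. MSA-DA 2 reached the lowest MSA-ZW library, and the decrease (log2 -0.13, SE 0.045, edgeR adjusted p = 0.0429) was lost in 11 of 16 alternatives, among them those without MSA-ZW 1 (0.138), MSA-ZW 3 (0.0835), MSA-DA 1 (0.166) or MSA-DA 3 (0.135), all edgeR adjusted p. It was also lost with the replicate number as a block (edgeR adjusted p = 0.0607).

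The elongation factor genes held 2 lower calls and no higher one, and these, Eef1a1 and Eef2, were the most abundant members per length. Eef1a1, which delivers aminoacyl-tRNA and led all members at 2700.1 FPKM, lies at chr9:78385731-78396433 (GRCm39, minus strand). It was at 6852, 6809 and 7037 CPM on MSA-ZW and 6573, 6576 and 6585 CPM on MSA-DA. Every MSA-DA library was below every MSA-ZW library, by 1.05-fold (log2 -0.069, SE 0.014, edgeR adjusted p = 0.000931). Eef2, the translocase, lies at chr10:81012465-81018332 (GRCm39, plus strand) and had 733 FPKM. Its 2523, 2496 and 2609 CPM on MSA-ZW and 2334, 2356 and 2318 CPM on MSA-DA did not overlap either and were 1.09-fold apart (log2 -0.12, SE 0.019, edgeR adjusted p = 1.52e-05).

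The exchange factors that recharge eEF1A did not pass the test. Eef1g (log2 -0.058, edgeR adjusted p = 0.120) and Eef1d (log2 -0.032, edgeR adjusted p = 0.555) had all MSA-DA libraries below the MSA-ZW libraries. Eef1b2 overlapped (log2 -0.0053, edgeR adjusted p = 0.939). The eEF1 group, most of it Eef1a1, summed to 8530 ± 168 CPM on MSA-ZW and 8166 ± 16.5 CPM on MSA-DA (SD, n = 3 each). Eef1a2, the form of muscle and neurons, had counts of 0, 3 and 1 on MSA-ZW and none on MSA-DA. Eif5a, which encodes a carrier of hypusine, was at 1300.0, 1296 and 1350.0 CPM on MSA-ZW and 1265, 1230.3 and 1256 CPM on MSA-DA. It was lower by 1.05-fold without overlap (log2 -0.073, SE 0.022, edgeR adjusted p = 0.0220), and the edgeR adjusted p was 0.0608 without MSA-ZW 3, 0.145 without MSA-DA 2 and 0.0516 without MSA-DA 3. Its paralog Eif5a2 had 1 count, in MSA-DA 2.

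The 5 methyltransferases that modify eEF1A were not called, with log2 differences from -0.068 for Eef1akmt4 to 0.15 for Eef1akmt2. Eef1akmt1, the most abundant of them at 25.3 FPKM, had a log2 difference of -0.0049 (SE 0.081, edgeR adjusted p = 0.980). Eef1e1, a member of the multisynthetase complex rather than of eEF1, was at log2 0.071 (SE 0.043, edgeR adjusted p = 0.319), and of the 16 alternatives passed only the one without MSA-ZW 1 (edgeR adjusted p = 0.0371). Of the 24 members not tested, 17 had no count in any library, which allows up to 0.209 CPM in the smallest library (3 counts, counting error only). Eif4e1b, Eif4a3l1 and Eif2c5 were among them, and Eif4a3l2 had at most 2 counts in a library.

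Where factors come in pairs, the balance between forms was computed as each form's share of the pair's FPKM. Eif4a2 made up 12.4%, 12.1% and 12.2% of Eif4a1 plus Eif4a2 in the MSA-ZW libraries and 14.01%, 14.1% and 14.1% in the MSA-DA libraries. The means were 12.2 ± 0.122% and 14.1 ± 0.0493% (SD, n = 3 each). Eif1b went from 17.4 ± 0.570% to 18.6 ± 0.389% of Eif1 plus Eif1b. Eif1ax went from 31.7 ± 0.120% to 30.3 ± 0.334% of its pair with Eif1a, and Eif2s3y from 16.8 ± 0.406% to 17.7 ± 0.409% of its pair with Eif2s3x. None of these 4 shares overlapped between gels. Each had a two-sided exact permutation p of 0.1, the smallest that 3 against 3 libraries allow, and 0.25 after Benjamini-Hochberg adjustment over 10 families, so no share could pass the threshold. In the families of 3 forms, 1 form each entered that adjustment. Of the others, Eif4g1 went from 33.2 ± 0.535% to 32.2 ± 0.353% and Eif4g2 from 61.4 ± 0.582% to 62.3 ± 0.550% of the Eif4g sum. Eif4e went from 69.0 ± 0.889% to 69.9 ± 0.388% and Eif4e2 from 20.2 ± 0.158% to 19.3 ± 0.285% of the Eif4e sum. These 4 did not overlap between gels either, each with an exact permutation p of 0.1, but the share of Eif4g2 overlapped when CPM replaced FPKM. The shares of Eif4g3, Eif4e3, Eif3j2, Eif4ebp1, Eif4ebp2, Eif4ebp3, Eif5a2 and Eef1a2 overlapped.

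**Figure D3:**
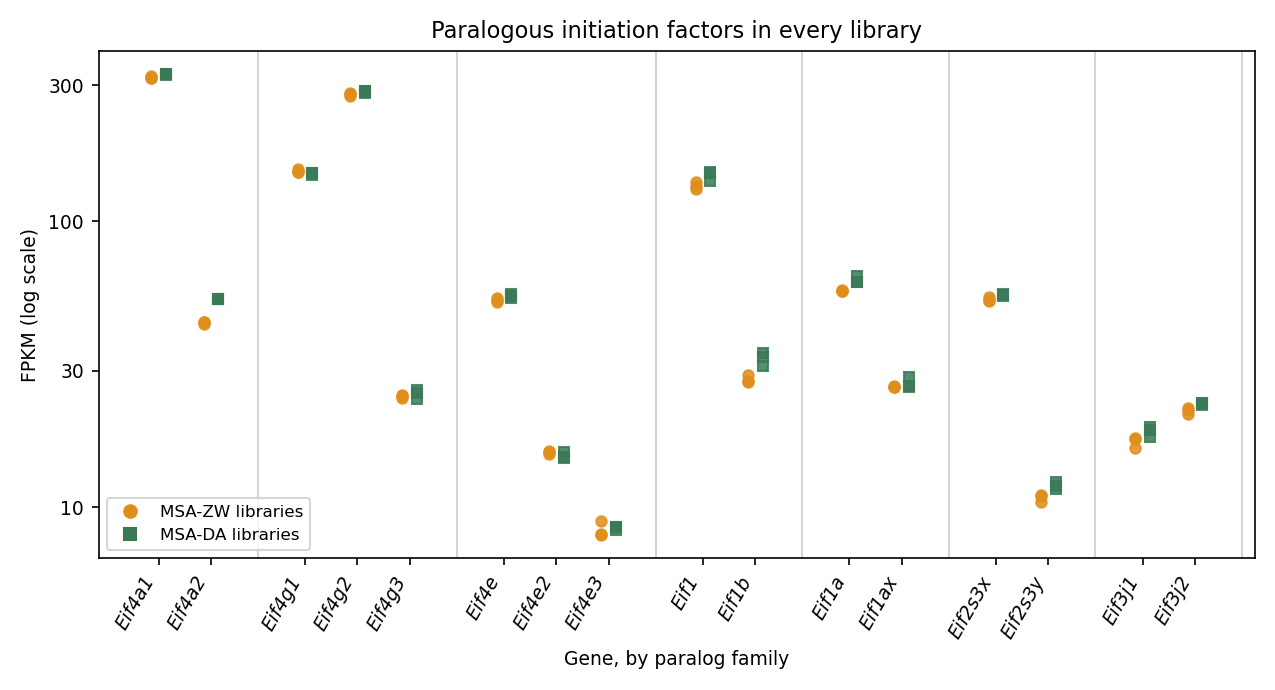
FPKM (log scale) of paralogous initiation factors in each library, MSA-ZW as circles and MSA-DA as squares. Eif4a2 lies above its MSA-ZW level in all 3 MSA-DA libraries and Eif4a1 has a smaller gap between gels.

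Base composition, which the choice of members did not use, was set beside the calls. The GC content of the transcript was 42.5% at the median of the 9 higher members, 54.98% for the 7 lower members and 50.1% for the 43 that were not called. Across the 59 tested members Spearman's rho between log2 difference and GC content was -0.74, and across 12329 genes it was -0.32; these describe genes of the same 6 libraries, which are not independent replicates. Of 19 members under 45% GC, 7 were higher and none was lower, beside 14.3% and 2.41% of all genes in that range. Of 8 members at 55% GC or more, none was higher and 3 were lower, beside 1.52% and 12.5% of all genes. These comparisons were not matched for depth: 41 of the 59 tested members had a mean of at least 100 CPM, beside 2421 of all 12467 tested genes. The part of depth in the rho values and call shares was not tested. Eif1 at 50.9% and Eif1b at 53.8% were the higher members outside the low range, and Eef1a1 at 47.4% had the lowest GC content of the lower members.

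**Figure D4:**
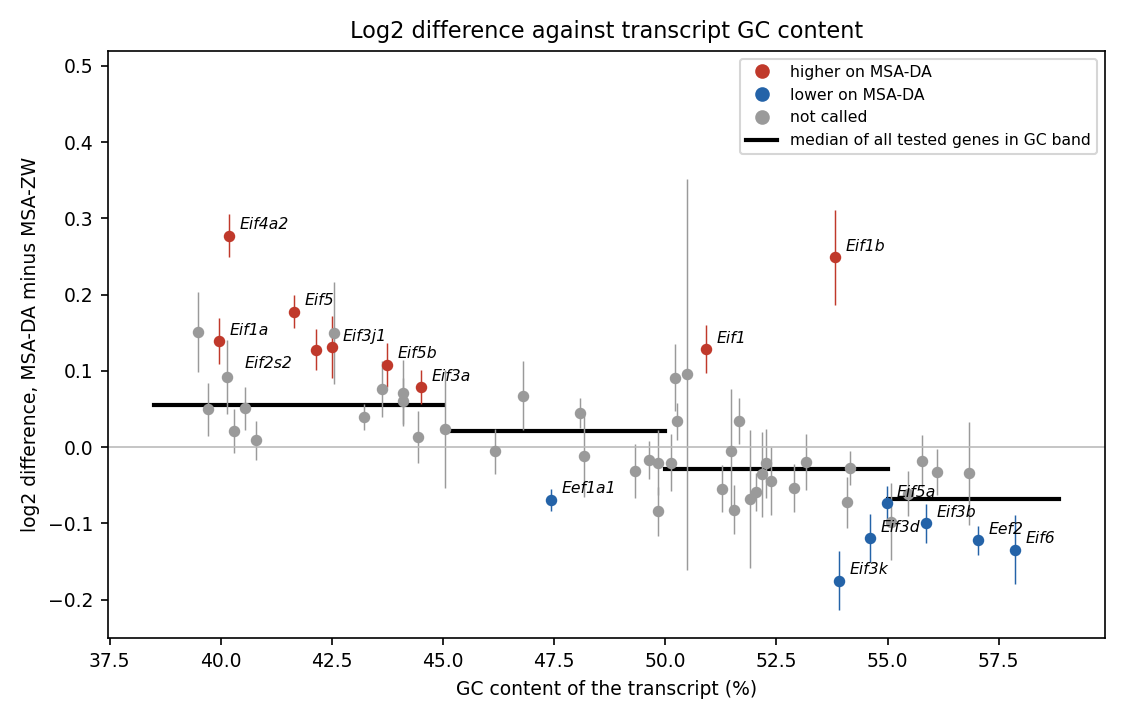
Log2 difference between MSA-DA and MSA-ZW (vertical axis) against the GC content of the transcript in percent (horizontal axis) for the 59 tested members, coloured by call, with standard errors as bars and black lines at the median of all tested genes in each of 4 GC ranges. Higher members lie mostly below 45% GC and lower members mostly above 50%.

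When GC content and length were fitted in each library, 4 of the 59 tested members were higher and 3 lower. Among 12329 genes, 5.07% were higher and 5.1% lower, together 10.2%. These members were 7 of the 16 called without the correction. Eif4a2 kept a log2 difference of 0.21 (edgeR adjusted p = 1.51e-06) and Eif5 of 0.12 (edgeR adjusted p = 8.70e-05). Eif1b had 0.29 (edgeR adjusted p = 0.00107) and Eif1 had 0.13 (edgeR adjusted p = 0.00218). Before the correction these 4 stood at 0.28, 0.18, 0.25 and 0.13, so Eif1 and Eif1b were as large with it as without it. The higher members that did not pass were Eif1a (0.063, edgeR adjusted p = 0.201), Eif2s2 (0.072, 0.0936), Eif3a (0.043, 0.257), Eif3j1 (0.076, 0.260) and Eif5b (0.070, 0.118). Each bracket gives the corrected log2 difference and then the edgeR adjusted p. Among the lower members Eef1a1 (-0.10, edgeR adjusted p = 7.13e-06), Eif3k (-0.14, 0.0115) and Eef2 (-0.062, 0.0204) passed. Eif3b (-0.048, edgeR adjusted p = 0.276), Eif3d (-0.074, 0.144), Eif5a (-0.026, 0.539) and Eif6 (-0.068, 0.399) did not. Whether the GC relation came from library preparation or from the cells was not tested.

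**Figure D5:**
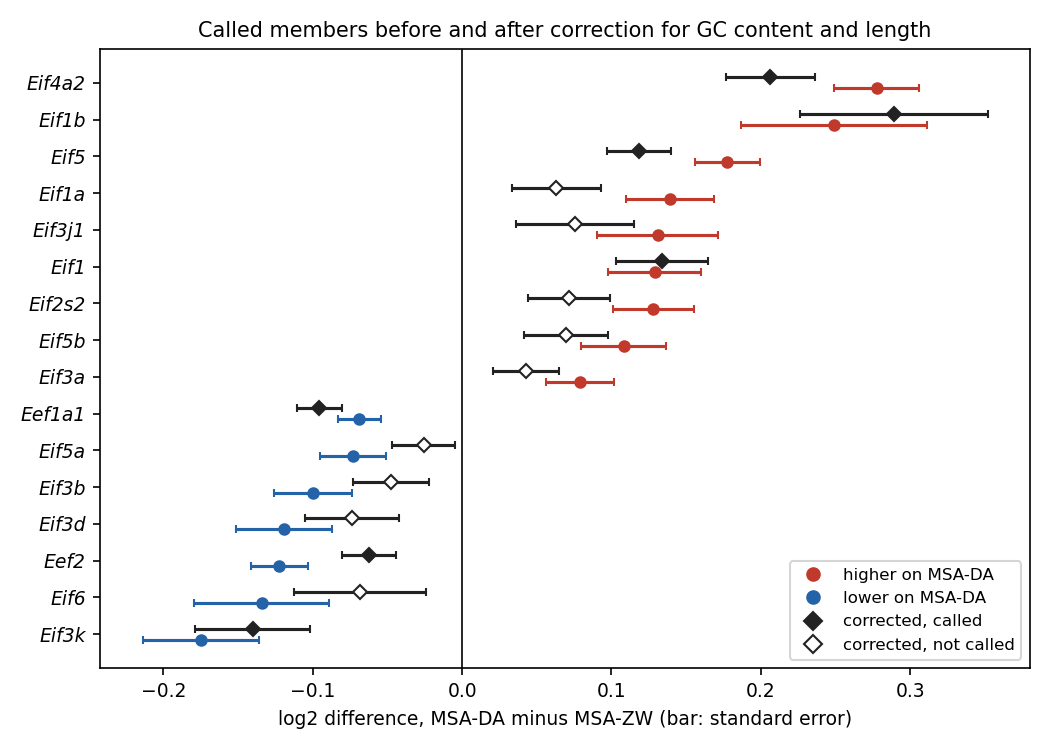
Log2 difference of the 16 called members before (coloured) and after (black diamonds, filled where still called) the correction for GC content and length, with standard errors as bars. Eif4a2, Eif5, Eif1b, Eif1, Eef1a1, Eif3k and Eef2 keep their call.

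Some members share sequence or space with other genes, and the sources used here do not say how the authors' counting treated such reads. Small nucleolar RNA genes lie within 8 tested members, among them Eif4a2 with 5, Eif5 with 1 and Eef2 with 1. Of these 8, Eif3a, Eif4a2 and Eif5 were higher and Eef2 lower, beside 13.4% higher and 7.41% lower of the 216 tested genes that hold one. The pseudogene Eif4a-ps4 shares 95.7% of its 1169 windows of 50 bases with Eif4a1 and 0% with Eif4a2. It was at 217, 213 and 221 CPM on MSA-ZW and 218, 229 and 219.5 CPM on MSA-DA, which overlapped. Reads of Eif4a1 counted at this pseudogene would be missing from the sum of Eif4a1 plus Eif4a2 used above. The shares of Eif4a2 given there would then be too high, which was not tested. Members with near-identical paralogs, such as Eif1a with Eif1ax and Eif3j1 with Eif3j2, are uncertain for the same reason.

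Of 9 genes of eIF2 phosphorylation, 2 were higher and 1 was lower, beside 6.92% and 6.5% of all tested genes. None of the 4 eIF2 kinases was called. With GC content and length fitted, 3 of the 9 were higher and none was lower, beside 5.07% and 5.1% of all genes. Impact, which binds GCN1 and keeps the kinase GCN2 from being activated, was at 79.4, 80.3 and 80.8 CPM on MSA-ZW and 107, 104 and 108 CPM on MSA-DA. The groups were far apart, at 1.33-fold (log2 0.41, SE 0.038, edgeR adjusted p = 1.23e-09), a larger fold than that of any member. Gcn1 itself was lower (log2 -0.13, edgeR adjusted p = 0.0120), though not without MSA-ZW 1 (0.0531), without MSA-DA 3 (0.122) or after the GC correction (0.751), all edgeR adjusted p. Ppp1r15a, a regulatory subunit of the eIF2 phosphatase, did not pass (log2 0.23, SE 0.082, edgeR adjusted p = 0.0517), but its groups did not overlap and it passed after the correction (0.29, edgeR adjusted p = 0.0149). Atf4, the transcription factor translated when eIF2 is phosphorylated, was higher (log2 0.10, edgeR adjusted p = 0.0273) but passed in only 8 of 16 alternatives, losing the call without MSA-ZW 1 (0.179), MSA-ZW 2 (0.0893), MSA-DA 1 (0.201), MSA-DA 2 (0.0601) or MSA-DA 3 (0.0972).

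None of the 14 mTORC1 and MNK genes was called, nor any of the 8 genes that modify eEF2 (Eef2k and the diphthamide pathway among them), the 2 hypusination genes or the 8 mitochondrial translation factors. Beside these lists and those that follow, 6.92% of all tested genes were higher and 6.5% lower. At a mean of at least 100 CPM, 30.9% of all genes were called in either direction. Of 16 other initiation factors, Abce1, Bzw1 and Ddx3x were higher by log2 0.10, 0.078 and 0.079 (edgeR adjusted p = 0.00933, 0.0464 and 0.0174). All of these lost the call after the GC correction (log2 0.028, 0.012 and 0.013) and without MSA-DA 2 or MSA-DA 3. Without MSA-DA 2 and without MSA-DA 3 the edgeR adjusted p was 0.0770 and 0.0833 for Abce1, 0.274 and 0.205 for Bzw1, and 0.118 and 0.203 for Ddx3x. Abce1 also lost its call without MSA-ZW 2 (0.0534), and Bzw1 without MSA-ZW 1 (0.164), MSA-ZW 2 (0.194) or MSA-DA 1 (0.0709). Bzw1 was called in only 3 of 16 alternatives. Pabpc4, which was not called (log2 0.081, edgeR adjusted p = 0.0872), passed with the correction (log2 0.10, edgeR adjusted p = 0.0268). Of 7 tested elongation and termination genes, the release factor Etf1 was higher (log2 0.11, edgeR adjusted p = 0.00141), but not after the GC correction (0.061, edgeR adjusted p = 0.1). The selenocysteine elongation factor Eefsec (log2 -0.30, edgeR adjusted p = 0.00515) and Gtpbp1 (log2 -0.15, edgeR adjusted p = 0.0157) were lower. Eefsec was not called without MSA-ZW 2 (0.0555), and Gtpbp1 without MSA-ZW 1 (0.0696), MSA-DA 1 (0.0645) or MSA-DA 2 (0.131), nor after the GC correction (log2 -0.091, edgeR adjusted p = 0.178). Pabpc1, a TOP gene counted above among the other initiation factors, was not called (log2 0.033, edgeR adjusted p = 0.337). Of 4 further TOP genes outside the members, Npm1 (log2 0.13, edgeR adjusted p = 8.97e-07) and Nap1l1 (log2 0.10, edgeR adjusted p = 0.00491) were higher and Rack1 was lower (log2 -0.12, edgeR adjusted p = 0.000619). Tpt1 was not called (log2 0.028, edgeR adjusted p = 0.502). The call of Nap1l1 was lost after the GC correction (log2 0.025, edgeR adjusted p = 0.651) and without MSA-ZW 2 (0.0513) or MSA-DA 2 (0.0901), while Npm1 and Rack1 kept theirs in all 16 alternatives. With limma at either pseudocount, Bzw1, Ddx3x, Gcn1, Atf4, Gtpbp1, Eefsec and Nap1l1 also lost their calls.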

How the data were processed

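RNA sequencing of total RNA gave 6 libraries, grouped by their titles into MSA-ZW and MSA-DA with 3 each. The tools named in the submitters' processing notes are HISAT2 2.2.1, cutadapt 1.9.1 and bcl2fastq 2.20.0.422, and the build is GRCm39. For the counting tool, the strand setting and the annotation release, nothing is given in these sources. The authors deposited raw counts and FPKM values for 56691 genes, per the file headers; the FPKM values the authors deposited equal counts per exonic length and library total to within 0.005.

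Deposited counts went into the quasi-likelihood test of edgeR 4.0.16 in R 4.3.3 (filterByExpr, TMM, group as the only term), with Benjamini-Hochberg adjusted p-values over 12467 genes and a threshold of 0.05. The standard error is the log2 difference divided by the square root of F, and CPM use TMM-scaled totals. Total counts were 14374912 to 18346615, with a common biological coefficient of variation of 3.04%. Libraries of different gels differed by a chi-square per degree of freedom of 5.37 to 8.54, those of MSA-ZW by 2.63 to 4.22 and those of MSA-DA by 1.55 to 1.63, so all 6 were kept as separate samples. On simulated counts of 12467 genes for the same comparison, with 50 genes changed at each fold, the test recovered 18% at 1.1-fold, 46% at 1.2-fold, 81.6% at 1.5-fold and 84% at 2-fold, with 5 false calls. The changed genes were drawn at random from all tested genes. Recovery for genes as deep as the members was not computed, and 41 of the 59 tested members had a mean of at least 100 CPM.

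Alternatives were RLE size factors, DESeq2 1.42.0, limma 3.58.1 on log2(FPKM + 1) and log2(FPKM + 0.1), no filter, a mean of at least 5 CPM, each library left out, the replicate number as a block, removal of ribosomal-RNA-like loci, Lars2 and mitochondrial genes, and a correction for GC content and length, alone or with the block. The correction fitted natural splines of 5 degrees of freedom for GC content (GENCODE M21, longest coding transcript) and exonic length in each library, for 12329 of 12467 genes (98.9%).

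Named were all called members, the member of each complex with the highest FPKM, a fixed set of central factors and every called gene of the related lists. The members and lists were chosen with earlier results of these data known. No column belonged to other samples. The marker list for lymphocytes is not reported here.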

Additional observations from a re-analysis of the deposited data

Results flagged for a closer look

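More than 3 counts in every library appeared in 4 of the 13 pseudogene rows that the member rule leaves out. The lowest count in a library was 3119 for Eif4a-ps4, 261 for Eef2-ps2, 51 for Eef1a1-ps1 and 25 for Eif3s6-ps2. No level of these rows was set against a control, since none of the libraries serves as one. Their values lie above the 3 counts that a count of 0 allows.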

How the results depend on the processing

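Of the 16 called members, 5 (Eif4a2, Eif5, Eif3k, Eef2 and Eef1a1) kept their call in all 16 alternatives. The 9 members called higher became 5 with limma at either pseudocount, and 4 with the correction for GC content and length, alone or with the replicate block. The 7 called lower became 3 with that correction, alone or with the block. With limma at either pseudocount Eif3d, Eif5a and Eif6 lost their lower call (limma adjusted p = 0.0580, 0.0688 and 0.0920 on log2(FPKM + 1)). Leaving out 1 library gave 4 to 10 higher (4 without MSA-DA 2) and 4 to 8 lower (4 without MSA-DA 3). The median log2 difference of tested members then ran from -0.021 (without MSA-ZW 2) to 0.010 (without MSA-ZW 3). No cause was tested. Libraries share only a number across gels: same-numbered libraries deviated from their group means with correlations of 0.011, 0.017 and -0.0025. With the replicate number as a block, 9 members were higher and 6 lower, and Eif6 was lost (edgeR adjusted p = 0.0607). Over 16 alternatives, named genes gave 542 results of the same call and direction, 111 that lost the call, 1 that gained it (Eef1e1 without MSA-ZW 1) and 18 that changed sign, none of them of a called member. After the GC and length correction, without and with the block, the sign changed for Eef1akmt1 (0.0075 and 0.0095), Eif2b5 (0.0073 and 0.0083), Eif2s1 (-0.059 and -0.059), Eif4e (-0.017 and -0.017), Eif4g1 (0.017 and 0.017) and Eif4g2 (-0.0010 and -0.00075). Leaving out 1 library gave -0.11 to 0.044 for Eef1akmt1 (above 0 without MSA-ZW 3, MSA-DA 2 or MSA-DA 3), -0.0042 to 0.017 for Eif2s1 (below 0 without MSA-DA 1 or MSA-DA 2), and -0.046 to 0.023 for Eif4ebp1 (above 0 without MSA-ZW 1). What depth limits was not separated from the spread between 3 libraries a gel; 24 members had too few counts to be tested.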
